A study of Mus musculus with 10 samples.

Results

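The genes described are the 4 mouse receptors for the Fc part of IgG, Fcgr1, Fcgr3, Fcgr4 and Fcgr2b, and Fcer1g, which encodes the signalling chain that the activating receptors share. They were taken by name, and all 5 were found among the 32285 genes measured. They were followed in single cells of female C57BL/6Rj mice, in phagocytes sorted from Peyer's patches, the lymphoid follicles of the small intestine, and in blood cells with high CD115. LysoDCs are lysozyme-expressing phagocytes of the Peyer's patch, sorted as follicular, immature, intermediate and mature subsets, and immature and maturing cDC2s (conventional type 2 dendritic cells) came from the same patches. The blood gates held DN blood cells, which lack both Ly6C and CD43, and monocytes positive for Ly6C or for CD43. All blood donors had received clodronate liposomes, which deplete phagocytes, 9 days before collection, to raise the number of DN blood cells, whereas Peyer's patch donors were untreated, so tissue and treatment cannot be told apart in any comparison of LysoDCs with blood. Peyer's patch cells were enriched for CD11c and had been incubated with the antibody 2.4G2, which binds the receptors encoded by Fcgr2b and Fcgr3, before staining.

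Dataset 1 pooled 30 Peyer's patch donors and 20 blood donors in 1 mRNA library, in which each sorted population carried its own hashtag (an antibody with a DNA barcode). Dataset 2 pooled 20 and 18 donors in 4 libraries, with hashtags added ahead of sorting, whereas in dataset 1 they were added to sorted cells. The LysoDC hashtags of dataset 2 are not tied to subsets, CCR2+ and CCR2- DN cells share a hashtag, and each blood gate had libraries of its own. After hashtag calls and cell filters 7878 and 7470 cells were used, with median depths per population of 2312 to 14346 UMIs (unique molecular identifiers, the counted molecules) per cell. Levels are CPM, UMIs of a gene per 1000000 gene UMIs of all cells in the population. The libraries read transcript 3′ ends, so a CPM counts molecules and is not scaled by gene length. A population has 2 pools of mice at most, its 2 sums over cells, which are the replicates (n = 2). A lower CPM cannot tell fewer expressing cells from less mRNA per cell. The share of cells with a UMI is given beside it. At an equal number of UMIs per cell that share largely follows the CPM, so it does not tell these apart either. The 2 lists of monocyte markers followed the gates. CD43-high monocyte markers summed to 4368 and 4365 CPM in CD43+ monocytes and to at most 392 CPM in the other populations. Ly6C-high monocyte markers summed to 5084 and 4054 CPM in Ly6C+ monocytes and at most 1358 CPM elsewhere. The cDC2 markers, in contrast, were higher in DN blood cells (1189 and 1635 CPM) than in immature or maturing cDC2s (591 and 506 CPM). LysoDC markers were highest in LysoDCs (66944 and 62353 CPM) but are not specific to them. They summed to 45842 and 38457 CPM in Ly6C+ monocytes and 17142 and 14228 CPM in CD43+ monocytes.

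Fcgr1 encodes CD64, the high-affinity IgG receptor of monocytes and macrophages. Fcgr3 (FcγRIII) and Fcgr4 (FcγRIV) encode receptors of lower affinity that bind IgG in immune complexes. These receptors signal through the immunoreceptor tyrosine-based activation motif (ITAM) of the Fc receptor gamma chain, the product of Fcer1g, which Src family kinases phosphorylate and Syk then binds. Fcgr2b encodes the inhibitory receptor, whose tail holds an inhibitory motif (ITIM) that recruits the phosphatase SHIP1. The balance of activating receptors to Fcgr2b is known to set how strongly a phagocyte responds to immune complexes.

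In the GRCm38 annotation (GENCODE M21) Fcgr2b (ENSMUSG00000026656, chr1:170958617-170976547, minus strand), Fcgr4 (ENSMUSG00000059089, chr1:171018920-171029761, plus strand) and Fcgr3 (ENSMUSG00000059498, chr1:171051174-171064935, minus strand) lie within 106319 bases. Fcer1g (ENSMUSG00000058715, chr1:171229572-171234365, minus strand) starts 164636 bases beyond Fcgr3, and Fcgr1 (ENSMUSG00000015947, chr3:96282909-96293969, minus strand) is on another chromosome. All are protein-coding, and in none of the 5 does another annotated gene cover the 3′ end that these libraries read. Fcgr2b and Fcgr3 have near-identical stretches, and 15.6% of the 50-base windows of Fcgr2b's coding sequence occur in that of Fcgr3. Within the last 500 bases of their coding transcripts, 33 of 1467 windows of Fcgr2b (2.25%) were shared with Fcgr3, and 0 windows of Fcgr1, Fcgr3, Fcgr4 or Fcer1g occurred in any other gene.

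The sequences that divide the family are the signalling motifs. They are shown as coding sequence from the GENCODE transcripts, 5′ to 3′, with the tyrosine codons in capitals. The ITAM pattern was found 1 time in Fcer1g and 0 times in Fcgr1, Fcgr3, Fcgr4 and Fcgr2b. The shorter ITIM pattern was found 1 time in Fcgr2b and 0 times in Fcgr3, and its letters also occur 3 times in Fcgr1, 1 time in Fcgr4 and 1 time in Fcer1g, where they are not known as ITIMs.
Fcgr2b ITIM, codons 317 to 322: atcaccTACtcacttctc
Fcer1g ITAM, codons 65 to 79: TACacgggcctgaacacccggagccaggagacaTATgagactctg

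Because Fcgr1 and Fcgr4 turned out to mark different monocytes, the bases before their starts are shown with those of Fcgr3. Promoters of all 5 genes were in the RefSeq table (GRCm38.p6, 250 bases before and 50 after the start), with 6 starts in all. The gamma-interferon activation site TTCNNNGAA, which reads the same on both strands, was found in Fcgr1 alone of the 5, and in 8.30% of the 32851 promoters of the table. The core of the site bound by PU.1, a factor of myeloid cells, was searched as GAGGAA on both strands and occurred in Fcgr1, Fcgr3 and Fcgr4 and in 28.3% of all promoters. Matches are in capitals on the gene's strand, so the PU.1 core appears in its reverse form. These are matches of letters, and no binding was measured. The Fcgr3 match precedes a RefSeq start that lies inside the GENCODE gene span given above, unlike the matches of Fcgr1 and Fcgr4.
Fcgr1, chr3:96294060-96294088, minus strand: aaggatgtatTTCCCAGAAaagggaacag
Fcgr1, chr3:96294009-96294034, minus strand: ggcaacttccTTCCTCttttctaatc
Fcgr4, chr1:171018894-171018919, plus strand: ggctatttacTTCCTCtcttctagtc
Fcgr3, chr1:171059404-171059419, minus strand: gtccatttccTTCCTC

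Each population had its own receptor profile. LysoDCs carried Fcgr3 with very little of the other 3 receptors, CD43+ monocytes carried mainly Fcgr4, Ly6C+ monocytes carried Fcgr3, Fcgr1 and Fcgr2b, and Fcgr2b was the most abundant of the 4 in DN blood cells. Of all UMIs of the 4 receptors, Fcgr3 made up 96.9% in LysoDCs of dataset 1 and 95.7% in those of dataset 2. Fcgr4 made up 63.9% and 73.0% in CD43+ monocytes. Fcgr2b made up 39.6% and 65.2% in DN blood cells. In Ly6C+ monocytes Fcgr3 accounted for 48.3% and 46.8%, Fcgr1 for 27.1% and 19.8%, Fcgr2b for 21.4% and 29.6%, and Fcgr4 for 3.19% and 3.75%. The summed level of the 4 receptors was 117 and 120 CPM in LysoDCs, 365 and 310 CPM in DN blood cells, 576 and 610 CPM in Ly6C+ monocytes and 545 and 509 CPM in CD43+ monocytes.

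**Figure D1:**
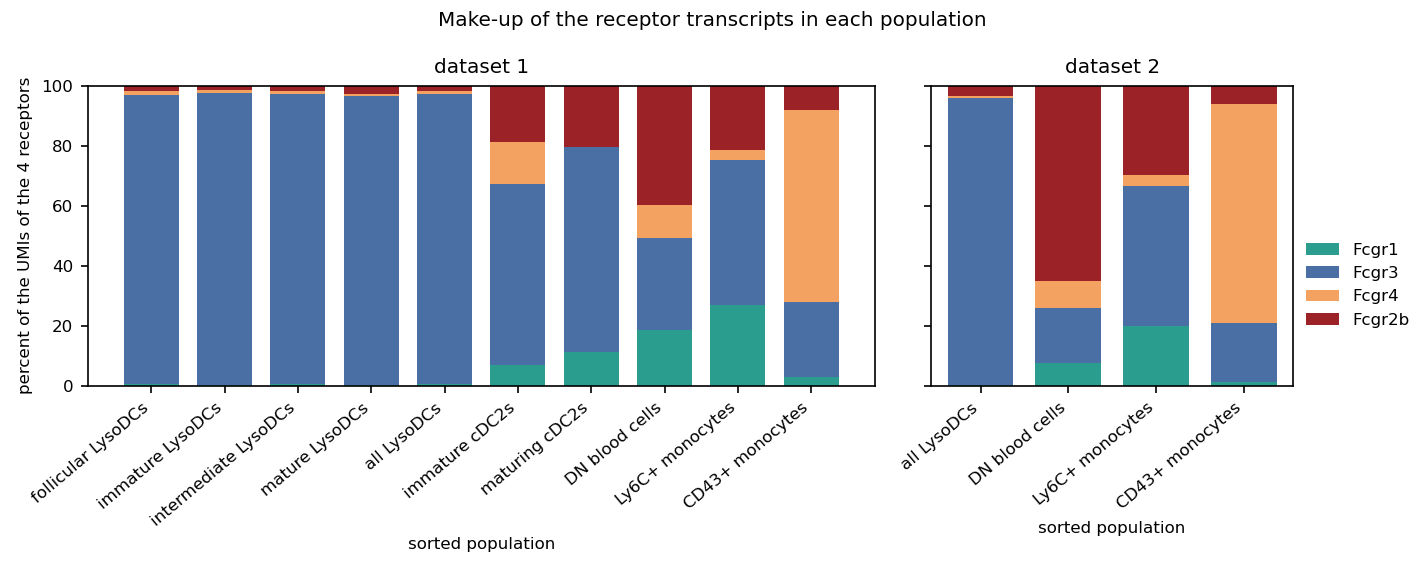
Share of Fcgr1, Fcgr3, Fcgr4 and Fcgr2b in the UMIs of these 4 receptors (percent, stacked to 100) for each sorted population of dataset 1 and dataset 2. Fcgr3 fills 95.7% to 97.5% of the bars of LysoDCs and their subsets, Fcgr4 63.9% and 73.0% of those of CD43+ monocytes, and Fcgr2b 39.6% and 65.2% of those of DN blood cells.

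Fcgr1 separated the blood gates from LysoDCs and was highest in Ly6C+ monocytes. It stood at 156 and 121 CPM in Ly6C+ monocytes of dataset 1 and dataset 2, at 67.3 and 23.8 CPM in DN blood cells, at 14.9 and 5.39 CPM in CD43+ monocytes and at 0.419 and 0.273 CPM in LysoDCs. The populations did not overlap, and in both datasets their order was the same. The LysoDC values rest on 16 UMIs in 2886 cells and on 2 UMIs in 681 cells, with 95% Poisson intervals of 0.240 to 0.681 CPM and 0.0331 to 0.986 CPM. Such intervals, and those below, cover counting error only. With the scaled hashtag call, in which each hashtag was divided by its median and more cells were kept, LysoDCs had 2.05 and 0.435 CPM of Fcgr1 (104 and 15 UMIs), the first well above its interval. In dataset 1 cDC2s were also low, with 6 UMIs (0.779 CPM) in immature and 5 UMIs (2.45 CPM) in maturing cells. The interval of maturing cDC2s (0.795 to 5.71 CPM) overlapped that of CD43+ monocytes of dataset 2 (2.95 to 9.05 CPM, from 14 UMIs).

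Fcgr3 was the most abundant of the 4 receptors in LysoDCs, at a level below that of Ly6C+ monocytes. LysoDCs had 113 and 115 CPM, DN blood cells 112 and 56.8 CPM, CD43+ monocytes 137 and 102 CPM, and Ly6C+ monocytes 278 and 285 CPM. Ly6C+ monocytes were above all others in both datasets, while the ranges of LysoDCs and CD43+ monocytes overlapped and DN blood cells reached from 56.8 CPM up to nearly the LysoDC level. Among the LysoDC subsets of dataset 1 the follicular cells had 121 CPM, the immature 113 CPM, the intermediate 117 CPM and the mature 96.3 CPM (95% Poisson interval 88.8 to 104 CPM). The interval of the mature subset lay below those of the other 3 subsets, which overlap one another. Fcgr3 was low in the cDC2s of the same patches, at 6.75 CPM (5.04 to 8.85) in immature and 14.7 CPM (9.91 to 20.96) in maturing cells. LysoDC markers, which include Lyz1 and Lyz2, still summed to 10491 and 15736 CPM in these cDC2s against 66944 CPM in LysoDCs of the same library, and their part in the cDC2 values was not tested.

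Fcgr4 marked CD43+ monocytes, with 348 CPM in dataset 1 and 372 CPM in dataset 2. DN blood cells had 40.7 and 27.1 CPM, Ly6C+ monocytes 18.4 and 22.9 CPM and LysoDCs 1.1 and 0.819 CPM. The order was the same in both datasets, but the DN and Ly6C+ values of dataset 2 were close. The LysoDC values came from 42 and 6 UMIs, and were 2.09 and 1.33 CPM with the scaled hashtag call. Immature cDC2s had 12 UMIs (1.56 CPM) and maturing cDC2s had 0 UMIs, which allows up to 1.47 CPM (3 counts).

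Fcgr2b, the inhibitory receptor, was a gene of blood cells here. DN blood cells had 144 and 202 CPM and Ly6C+ monocytes 123 and 181 CPM, and these ranges overlap. CD43+ monocytes had 44.3 and 30.4 CPM. LysoDCs had 2.07 and 4.09 CPM, from 79 and 30 UMIs, with no overlap with any blood gate. B cells are known to carry Fcgr2b, and the 7 B cell markers summed to 221 and 205 CPM in LysoDCs against 20.8 to 61.2 CPM in the blood gates, and their part in the Fcgr2b values was not tested. Immature and maturing cDC2s had 2.08 and 4.41 CPM of Fcgr2b.

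Fcer1g was by far the most abundant of the 5 and was present in every population. CD43+ monocytes had 4356 and 4157 CPM, Ly6C+ monocytes 3121 and 2946 CPM, DN blood cells 2429 and 2090 CPM and LysoDCs 1101 and 987 CPM, with no overlap between any of these 4. Follicular, immature, intermediate and mature LysoDCs had 1175, 1216, 1070 and 926 CPM, and immature and maturing cDC2s 488 and 628 CPM. Per UMI of an activating receptor there were 9.59 and 8.50 UMIs of Fcer1g in LysoDCs, 6.90 and 6.86 in Ly6C+ monocytes, 8.70 and 8.68 in CD43+ monocytes and 11 and 19.4 in DN blood cells. In cDC2s, with few receptor UMIs, there were 53.7 (immature) and 36.7 (maturing). Markers of mast cells and basophils, which also need the gamma chain, were at 0 UMIs in all blood gates except 1 gene in DN blood cells of dataset 2 (0.0347 CPM), and at no more than 0.0262 CPM in total LysoDCs. NK cell markers, for another cell type with Fcgr3 and Fcer1g, summed to at most 5.26 CPM in total LysoDCs and 14.9 CPM in the blood gates, but to 18.1 CPM in mature LysoDCs and 67.1 CPM in maturing cDC2s, against 0.389 CPM in immature cDC2s. Fcgr3 and Fcer1g were also higher in maturing than in immature cDC2s, and the part of NK cells in this was not tested.

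**Figure D2:**
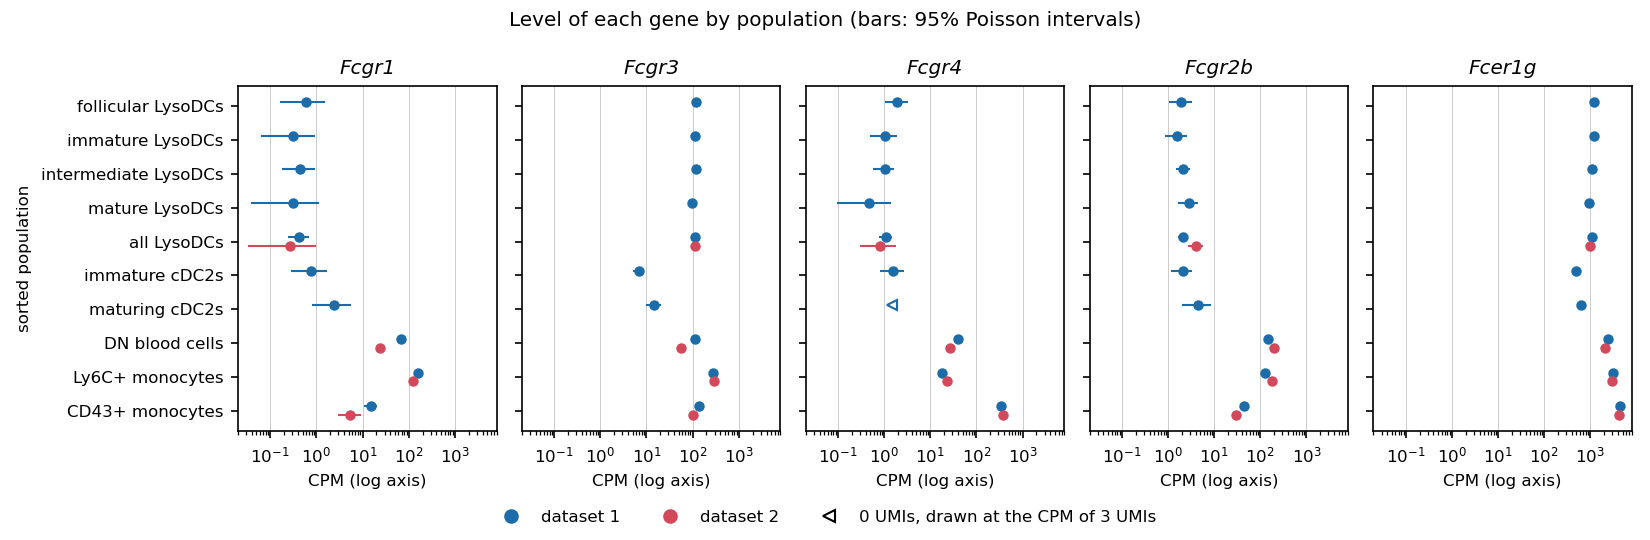
CPM of each of the 5 genes (log axis) in every sorted population of dataset 1 (blue) and dataset 2 (red), with 95% Poisson intervals as bars. Fcgr3 sits near 113 CPM in LysoDCs and between 56.8 and 285 CPM in blood, while Fcgr1, Fcgr4 and Fcgr2b stay at or below 4.09 CPM in total LysoDCs of both datasets.

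LysoDCs were first set against the blood gates, in one model over all 8 sums (edgeR quasi-likelihood test, dataset as a block, two-sided, Benjamini-Hochberg adjustment over the 11474 genes tested). All 5 genes passed the filter on low counts. Against Ly6C+ monocytes all 5 were lower in LysoDCs at an adjusted p of at most 0.05, where 51.5% of all tested genes were called in either direction, 25.3% as lower and 26.2% as higher in LysoDCs. The log2 difference was -8.64 ± 0.43 for Fcgr1 (SE, n = 2 sums per population, edgeR adjusted p = 2.95e-06), -5.67 ± 0.34 for Fcgr2b (adjusted p = 1.32e-05) and -4.22 ± 0.28 for Fcgr4 (adjusted p = 1.34e-06). For Fcer1g it was only -1.46 ± 0.15 and for Fcgr3 -1.24 ± 0.22, with edgeR adjusted p of 1.77e-05 and 0.00184. Every one of these differences had the same sign in both datasets.

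Against CD43+ monocytes 4 of the 5 were lower in LysoDCs, where 55.6% of all genes were called in either direction, 26.9% as lower and 28.7% as higher. Fcgr4 differed most, by -8.13 ± 0.27 on the log2 scale, a fitted fold of 279 (edgeR adjusted p = 1.49e-08). Fcgr1 differed by -4.56 ± 0.55, Fcgr2b by -3.48 ± 0.36 and Fcer1g by -1.74 ± 0.15, with edgeR adjusted p of 0.000300, 0.000183 and 4.55e-06. Fcgr3 did not pass (0.23 ± 0.23, edgeR adjusted p = 0.417). Its log2 ratio of CPM was -0.28 in dataset 1 and 0.18 in dataset 2, and with library totals in place of TMM scaling its fitted difference was -0.046.

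Against DN blood cells 4 of the 5 were again lower in LysoDCs, where 53.2% of all genes were called in either direction, 26.9% as lower and 26.3% as higher. The differences were -6.87 ± 0.43 for Fcgr1, -5.88 ± 0.34 for Fcgr2b, -4.92 ± 0.26 for Fcgr4 and -1.05 ± 0.15 for Fcer1g (edgeR adjusted p of 7.66e-06, 8.65e-06, 2.44e-07 and 0.000151). Fcgr3 was 0.55 ± 0.22 higher in LysoDCs and missed the threshold (edgeR adjusted p = 0.0670). It passed with no filter on low counts (adjusted p = 0.00308) and without the DN sum of dataset 1 (0.96, adjusted p = 0.000310). The log2 ratios of CPM for Fcgr3 were 0.01 in dataset 1 and 1.02 in dataset 2, so the 2 pools of DN blood cells differ here.

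CD43+ and Ly6C+ monocytes, the established pair of blood monocytes, differed in 4 of the 5 genes, where 29.7% of all genes were called, 14.4% as higher and 15.3% as lower in CD43+ monocytes. Fcgr4 was 3.90 ± 0.21 higher in CD43+ monocytes on the log2 scale, a fitted fold of 14.9 (edgeR adjusted p = 2.85e-06). Fcgr1 was lower there by -4.09 ± 0.34, Fcgr2b by -2.19 ± 0.30 and Fcgr3 by -1.48 ± 0.23, with edgeR adjusted p of 0.000163, 0.00205 and 0.00220. So 1 activating receptor was higher there while the other two and the inhibitory receptor were lower. Fcer1g was 0.28 ± 0.15 higher and did not pass (edgeR adjusted p = 0.179), though it did with library totals in place of TMM scaling (0.49, adjusted p = 0.00313). That scaling moved the median log2 difference of all genes by 0.21 in this comparison and raised the share of calls that were higher in CD43+ monocytes from 48.4% to 67.1%. Leaving out the CD43+ sum of dataset 1 took Fcgr2b to -2.85, and leaving out the Ly6C+ sum of dataset 1 took Fcgr1 to -4.70.

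DN blood cells, the candidate precursors of the study, had less of 2 activating receptors than Ly6C+ monocytes. Fcgr3 was lower in DN cells by -1.79 ± 0.23 (edgeR adjusted p = 0.00184) and Fcgr1 by -1.77 ± 0.26 (edgeR adjusted p = 0.00502), where 16.3% of all genes were called in either direction, 8.26% as lower and 8.05% as higher. Fcgr4 was 0.69 ± 0.21 higher and just past the threshold (edgeR adjusted p = 0.0465). Fcgr2b (0.21 ± 0.25, adjusted p = 0.643) and Fcer1g (-0.41 ± 0.15, adjusted p = 0.0855) did not pass in edgeR. Without the block for dataset, Fcgr1 (adjusted p = 0.0779) and Fcgr4 (adjusted p = 0.0828) no longer passed, nor did they under the scaled hashtag call (0.0731 and 0.101). The Fcgr4 call was also lost with RLE size factors (0.0520), in DESeq2 (0.0889), with cells of at least 2000 UMIs (0.0524), with library totals (0.0540), and without the DN sum of dataset 1 (0.250), the Ly6C+ sum of dataset 1 (0.342) or the Ly6C+ sum of dataset 2 (0.0546). Fcer1g passed as lower in DN cells with RLE size factors (adjusted p = 0.0478), with library totals (0.0123) and in DESeq2 (0.00349).

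Set against CD43+ monocytes, DN blood cells differed in 4 of the 5 genes, where 34.7% of all genes were called, 16.8% as lower and 17.9% as higher in DN cells. Fcgr4 was lower in DN cells by -3.21 ± 0.19 (edgeR adjusted p = 4.19e-06) and Fcer1g by -0.69 ± 0.15 (adjusted p = 0.00467). Fcgr2b was 2.40 ± 0.29 higher (adjusted p = 0.000949) and Fcgr1 2.31 ± 0.35 higher (adjusted p = 0.00190), both by edgeR. Fcgr3 differed by -0.32 ± 0.23 and did not pass (edgeR adjusted p = 0.325), with -0.75 (adjusted p = 0.00683) without the DN sum of dataset 1 and 0.046 without that of dataset 2. The Fcer1g call was lost without the CD43+ sum of dataset 2 (adjusted p = 0.0715), and Fcgr2b was 3.06 higher without that of dataset 1. Under the scaled hashtag call Fcgr1 was 1.96 higher and just missed the threshold (adjusted p = 0.0522). With library totals in place of TMM scaling, the calls higher in the first population fell from 51.5% to 33.0% here and from 51.6% to 36.4% for LysoDCs against CD43+ monocytes, as the medians of all genes moved by -0.23 and -0.29.

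**Figure D3:**
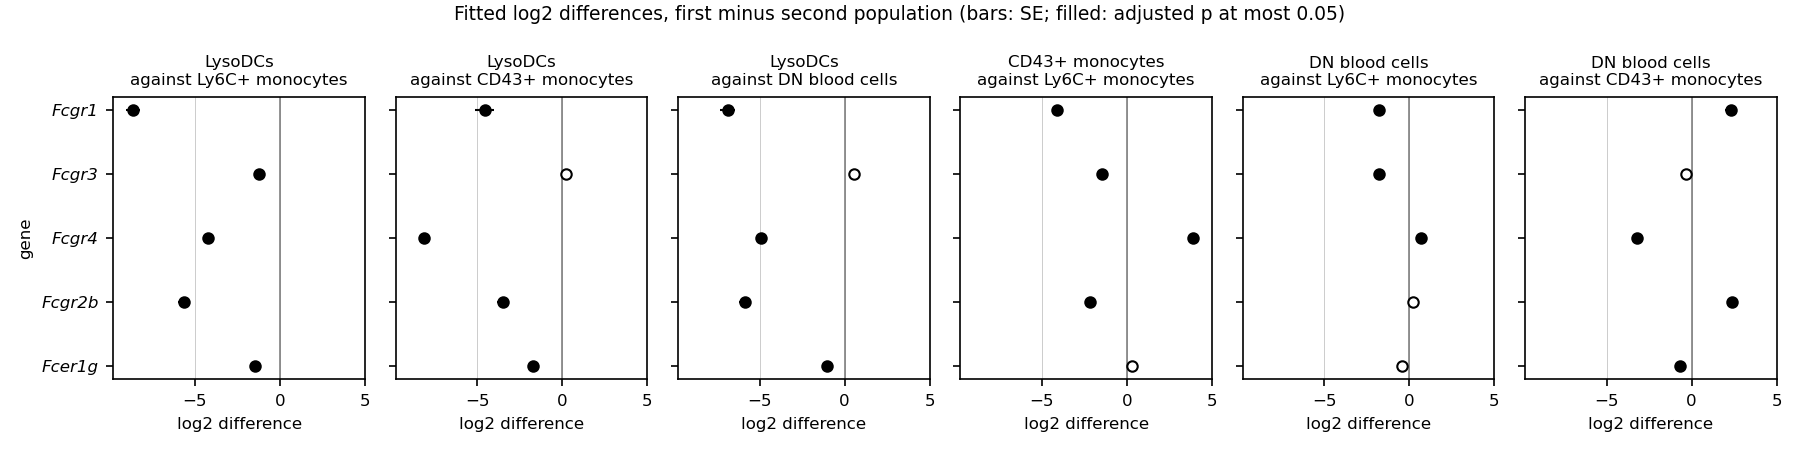
Fitted log2 differences of the 5 genes in 6 comparisons (first minus second population), with SE as bars and filled points for an edgeR adjusted p of at most 0.05. Fcgr3 lies between -1.79 and 0.55 in all comparisons, while Fcgr1 reaches -8.64 and Fcgr4 -8.13 in LysoDCs against monocytes.

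The activating to inhibitory ratio, the UMIs of Fcgr1, Fcgr3 and Fcgr4 over those of Fcgr2b, was highest in LysoDCs and lowest in DN blood cells in both datasets. It was 55.5 (95% counting interval 44.4 to 70.2) and 28.4 (19.7 to 42.3) in LysoDCs, 11.3 (9.29 to 13.9) and 15.7 (12.5 to 20.0) in CD43+ monocytes, 3.66 (3.32 to 4.05) and 2.37 (2.20 to 2.56) in Ly6C+ monocytes, and 1.53 (1.43 to 1.63) and 0.533 (0.510 to 0.556) in DN blood cells. The values of the 4 populations did not overlap with this hashtag call, and the DN blood cells of dataset 2 were the only ones with more inhibitory than activating UMIs. The ratio is a score over genes chosen with results known and is given without a test. Among LysoDC subsets it was 63.3 (36.8 to 119) in follicular, 72.9 (44.0 to 131) in immature, 55.9 (39.7 to 81.5) in intermediate and 34.3 (21.5 to 58.3) in mature cells, with overlapping intervals. With the scaled hashtag call these were 34.3, 25.2, 30.0 and 17.5, each below its interval, and the immature subset was no longer the highest. Immature cDC2s had 4.38 (2.52 to 8.07) and maturing cDC2s 3.89 (1.83 to 9.20), below every LysoDC subset, and 3.35 and 7.0 with the scaled call.

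The large LysoDC ratio rests on few Fcgr2b UMIs, 79 against 4381 activating UMIs in dataset 1 and 30 against 851 in dataset 2. With the scaled hashtag call it was 26.7 in dataset 1 and 16.3 in dataset 2. The LysoDC level of Fcgr2b was then 4.44 and 7.34 CPM and that of Fcgr3 114 and 118 CPM, and the levels of Fcgr1 and Fcgr4 were higher too, as given above. B cell markers stood at 212 and 195 CPM with that call, and the cause of these shifts was not tested. CD43+ monocytes had ratios of 9.49 and 14.8 under the same call, so in dataset 2 the 2 populations were close, and no interval was computed for these values. In dataset 2 the main call kept 681 LysoDCs, on which all LysoDC values of that dataset outside the scaled call rest. The LysoDC hashtags gave 4, 213, 321 and 143 cells, against 741, 781, 851 and 583 cells under the scaled call. The blood gates of dataset 2 changed less, with 866 against 910 Ly6C+ monocytes, 952 against 1048 CD43+ monocytes and 4971 against 5524 DN blood cells.

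**Figure D4:**
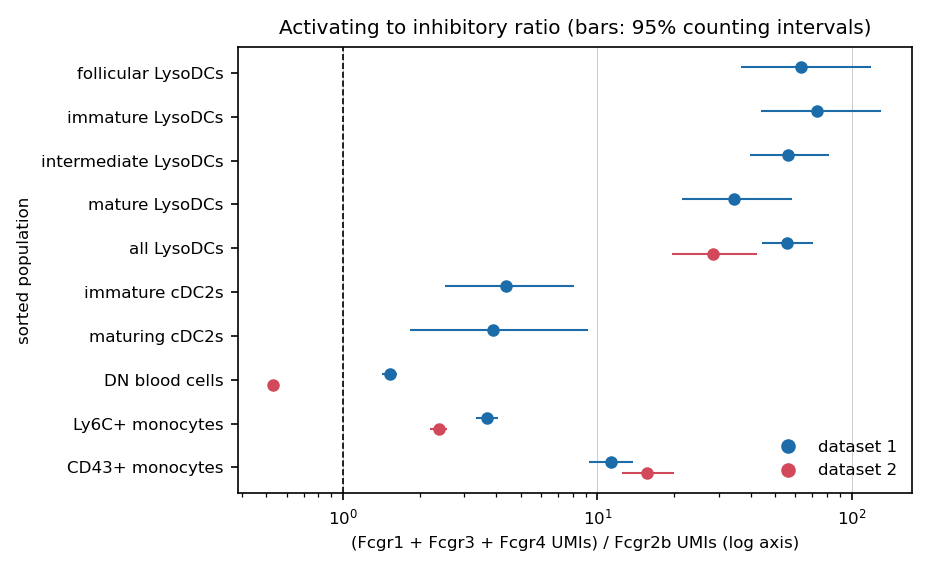
Ratio of activating (Fcgr1, Fcgr3 and Fcgr4) to inhibitory (Fcgr2b) UMIs on a log axis for each sorted population, dataset 1 in blue and dataset 2 in red, with 95% counting intervals and a dashed line at 1. LysoDCs lie at 55.5 and 28.4, CD43+ monocytes at 11.3 and 15.7, Ly6C+ monocytes at 3.66 and 2.37, and DN blood cells at 1.53 and 0.533.

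Shares of cells with a UMI were compared after thinning each cell to 2000 UMIs. LysoDCs had more UMIs per cell (median 13241 and 8999) than CD43+ monocytes (2969 and 2312). In dataset 1 these cells shared 1 mRNA library and were sequenced together, and what sets the difference was not tested. Cells under 2000 UMIs were left out, which were 13.3% and 31.7% of CD43+ monocytes and at most 4.20% of any other population. Fcgr3 was then seen in 20.1% and 21.3% of LysoDCs, 18.8% and 8.78% of DN blood cells, 42.2% and 43.8% of Ly6C+ monocytes and 23.4% and 17.4% of CD43+ monocytes, against 1.41% of immature and 1.59% of maturing cDC2s. Before thinning, 67.7% and 58.6% of LysoDCs had a UMI of Fcgr3, against 33.3% and 21.2% of CD43+ monocytes. The share was 33.6% and 20.1% for DN blood cells, but 67.0% and 80.6% for Ly6C+ monocytes. Cells with a UMI held a mean of 2.21 and 2.11 of Fcgr3 in LysoDCs, against 1.84 and 2.13 in Ly6C+ monocytes. For Fcer1g these means were 14.9 and 11.1 against 13.9 and 17.7. In dataset 1 both genes thus had no fewer UMIs per cell in LysoDCs than in Ly6C+ monocytes, despite the lower CPM. In dataset 2 both had fewer. In the 4 LysoDC subsets the thinned shares of Fcgr3 were 19.2% to 20.5%.

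Fcgr4 was seen in 46.5% and 46.0% of thinned CD43+ monocytes, 6.71% and 5.21% of DN blood cells and 5.05% and 4.41% of Ly6C+ monocytes. In LysoDCs the share was 0.247% and 0.457%, next to 0.303% of immature cDC2s (median depth 7370 UMIs before thinning). Fcgr1 was found in 23.6% and 16.0% of Ly6C+ monocytes, 11.9% and 3.62% of DN blood cells, 2.53% and 1.08% of CD43+ monocytes, and 0.0706% and 0% of LysoDCs (0 of 656 cells, a 95% exact upper limit of 0.561%). Fcgr2b was found in 24.1% and 28.9% of DN blood cells, 21.2% and 28.6% of Ly6C+ monocytes, 6.24% and 4.62% of CD43+ monocytes and 0.530% and 0.915% of LysoDCs. In the cDC2s of dataset 1 the immature and maturing cells had 0.101% and 0% for Fcgr1, 0.303% and 0% for Fcgr4, and 0.303% and 1.59% for Fcgr2b. The Fcgr4 shares of LysoDCs rest on 7 and 3 cells and that of immature cDC2s on 3 cells, and their exact intervals overlap. Fcer1g was seen in 83.4% and 81.7% of LysoDCs, 58.2% of immature and 63.7% of maturing cDC2s, and 97.4% to 99.7% of cells in the blood gates.

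Activating and inhibitory receptors were seen together most often in Ly6C+ monocytes. After thinning, 12.9% and 17.1% of these cells had UMIs of both kinds, against 8.35% and 5.37% of DN blood cells, 3.54% and 2.77% of CD43+ monocytes and 0.106% and 0.457% of LysoDCs. Any activating receptor was seen in 57.7% and 55.6% of Ly6C+ monocytes and 30.3% and 15.9% of DN blood cells. It was 59.0% and 54.5% in CD43+ monocytes and 20.5% and 21.8% in LysoDCs. With the Fcgr2b shares above, each kind was seen often in Ly6C+ monocytes. Whether the 2 kinds met more often than these separate shares give was not tested. Cells with Fcgr2b and no activating receptor made up 15.8% and 23.6% of DN blood cells, 8.31% and 11.5% of Ly6C+ monocytes and 2.70% and 1.85% of CD43+ monocytes. At 2000 UMIs a cell, a receptor that was not seen can still be expressed.

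Within DN blood cells the receptors did not all vary together. The cells were divided by their summed UMIs of 8 CD43-high monocyte markers (Spn, Cd300e, Eno3, Treml4, Ace, Pglyrp1, Nr4a1 and Fabp4), a range of a score and not a cell type. Fcgr4 stood at 13.3 and 15.8 CPM in DN cells with 0 marker UMIs, at 22.9 and 21.1 CPM with 1 to 2, and at 144 and 126 CPM with 3 or more. The last class held 20.4% of DN blood cells in dataset 1 and 9.21% in dataset 2 (433 and 458 cells), and 65.9% and 39.4% of all Fcgr4 UMIs of the DN gate. Its median depth was not higher (3819 and 3932 UMIs, against 4591 and 4909 with 0 marker UMIs). Near the boundary, 183 and 451 cells had 2 marker UMIs and 104 and 136 cells had 3. The rise of Fcgr4 was not particular to DN blood cells. In Ly6C+ monocytes the class of 3 or more held 11.1% and 21.4% of the cells. Fcgr4 was at 29.7 and 38.3 CPM there, against 15.0 and 19.3 CPM with 0 marker UMIs, with overlapping Poisson intervals in dataset 1.

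Fcgr2b did not follow Fcgr4 across these classes of DN blood cells. It was at 149, 144 and 135 CPM in dataset 1 and at 219, 193 and 139 CPM in dataset 2, with rising marker UMIs, so the lowest and highest classes overlap in their Poisson intervals in dataset 1 only. Fcgr1 was at 74.6, 54.6 and 69.2 CPM in dataset 1 and 24.9, 22.3 and 23.4 CPM in dataset 2. Fcgr3 was highest in the class of 3 or more, at 189 against 95.6 CPM with 0 marker UMIs in dataset 1, and at 73.8 against 56.7 CPM in dataset 2. Fcer1g was highest there too, at 3418 against 2195 CPM and 3069 against 1984 CPM. The cDC2 markers had a median of 0 UMIs per cell in the class of 3 or more and of 6 and 7 UMIs in the class of 0. LysoDC markers had medians of 81 and 26 UMIs in the class of 3 or more and 49 and 12 in the class of 0, and Ly6C-high monocyte markers 2 and 1 against 6 and 2. The part of these differences in the receptor levels was not tested.

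**Figure D5:**
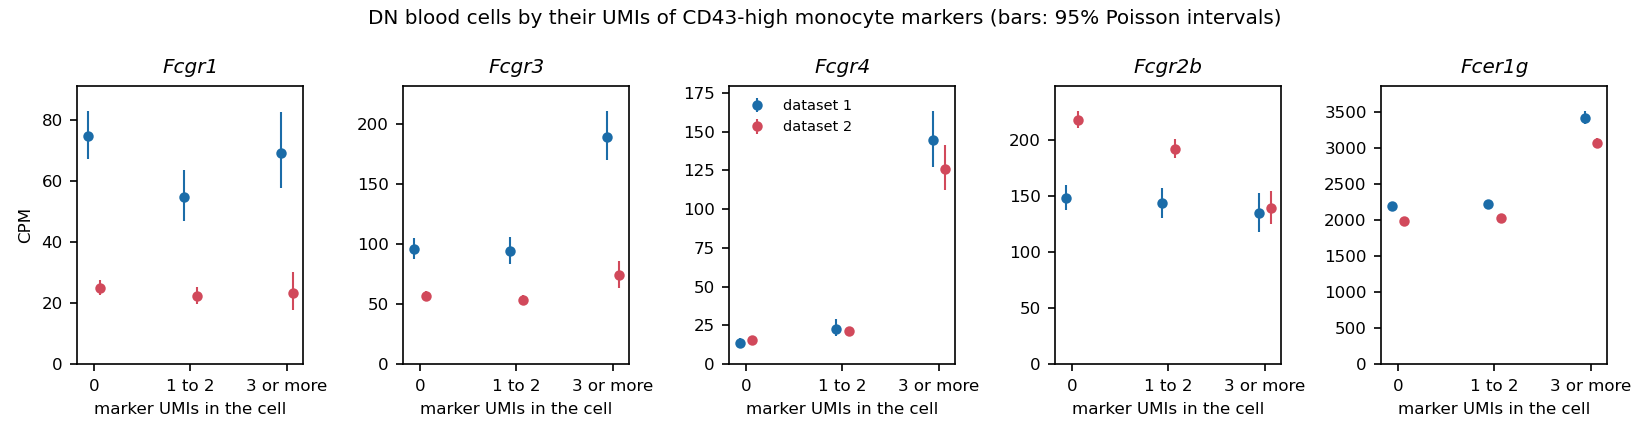
CPM of the 5 genes in DN blood cells with 0, 1 to 2 and 3 or more UMIs of CD43-high monocyte markers (dataset 1 in blue, dataset 2 in red, bars for 95% Poisson intervals). Fcgr4 stands at 144 and 126 CPM in the class of 3 or more, against 13.3 and 15.8 CPM in the class of 0, while Fcgr2b is at 135 and 139 CPM against 149 and 219 CPM.

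Of 13 other immunoglobulin Fc receptors on a list, 6 could be tested. Fcgrt, the neonatal Fc receptor that recycles IgG, had 1.07 and 1.36 CPM in LysoDCs, 126 and 95 CPM in DN blood cells and 107 and 84.3 CPM in CD43+ monocytes. It was lower in LysoDCs than in DN blood cells by -6.54 ± 0.20 (edgeR adjusted p = 6.83e-09) and than in CD43+ monocytes by -6.11 ± 0.20 (adjusted p = 7.92e-09), and 1.11 ± 0.14 higher in DN blood cells than in Ly6C+ monocytes (adjusted p = 0.000797). Of the 6, 3 were lower and 0 higher in LysoDCs than in DN blood cells, 2 lower and 0 higher than in CD43+ monocytes, and 1 lower and 1 higher than in Ly6C+ monocytes. DN blood cells had 4 of the 6 above and 0 below Ly6C+ monocytes. Apart from Fcgrt, the tested genes of this list had at most 11.5 CPM in any sum. Fcrls had 2.18 and 1.77 CPM in DN blood cells and 0 CPM in both monocyte gates, so it passed the filter through DN blood cells. The gene called higher in LysoDCs than in Ly6C+ monocytes was Fcmr, at 1.15 and 0.273 CPM against 0 CPM. The counts of calls in this list thus rest largely on genes near the floor. Over all tested genes 53.2% were called in LysoDCs against DN blood cells, 55.6% against CD43+ monocytes and 51.5% against Ly6C+ monocytes. In DN blood cells against Ly6C+ monocytes it was 16.3%. These are shares in either direction, and by that measure 3 of 6 against DN blood cells is near the background. Lower calls alone were 26.9% of all genes in LysoDCs against DN blood cells.

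Of 28 genes of ITAM signalling downstream of Fc receptors, all tested, 13 were lower and 4 higher in LysoDCs than in Ly6C+ monocytes (median log2 difference -0.22, against 0.00 for all genes). In LysoDCs against CD43+ monocytes 15 were lower and 2 higher (median -0.44, against 0.02), and against DN blood cells 9 were lower and 7 higher (median 0.02, against -0.03). Of all genes 51.5%, 55.6% and 53.2% were called in either direction in these comparisons, and the number of calls in the list was near that in each. By direction, 25.3%, 26.9% and 26.9% of all genes were lower in LysoDCs and 26.2%, 28.7% and 26.3% higher. The list's calls thus leaned to lower against both monocyte gates and were near those shares against DN blood cells. No test of the list was run. Syk, the kinase that binds the phosphorylated ITAM, was at 217 and 204 CPM in LysoDCs and 174 and 116 CPM in DN blood cells (0.62 ± 0.14 higher, edgeR adjusted p = 0.00307). Vav3, a guanine nucleotide exchange factor, was at 0.707 and 0.546 CPM in LysoDCs and at 105 and 114 CPM in CD43+ monocytes (-7.07 ± 0.23, edgeR adjusted p = 7.92e-09). Rac2, a haematopoietic Rac GTPase, was at 29.2 and 21.2 CPM in LysoDCs, and Ly6C+ monocytes had 421 and 358 CPM (-3.85 ± 0.19, edgeR adjusted p = 7.33e-08). Tyrobp, which encodes DAP12, another ITAM adaptor, was 2578 and 2329 CPM in LysoDCs and 4955 and 4424 CPM in Ly6C+ monocytes (-0.86 ± 0.15, edgeR adjusted p = 0.000645).

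Between the monocytes, 10 of the 28 ITAM genes were higher and 2 lower in CD43+ than in Ly6C+ cells (median 0.28, against 0.01 for all genes). The Src family kinase genes Fyn and Fgr were among the former: Fyn was 157 and 173 CPM against 10.3 and 12.3 CPM (3.66 ± 0.17, edgeR adjusted p = 5.36e-07), and Fgr 495 and 573 CPM against 205 and 220 CPM (1.12 ± 0.16, adjusted p = 0.000513). Pik3ap1, an adaptor of PI3-kinase, was 2.35 ± 0.17 higher (edgeR adjusted p = 9.24e-06). Lat2, a membrane adaptor, differed by -0.82 ± 0.14 (edgeR adjusted p = 0.00188). DN blood cells had 15 of the 28 lower and 2 higher than CD43+ monocytes, and 7 lower and 2 higher than Ly6C+ monocytes. Of all genes 29.7% were called between the monocytes, 34.7% in DN blood cells against CD43+ and 16.3% against Ly6C+ monocytes.

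Genes of inhibitory signalling, a list of 11 around SHIP1 and the phosphatases SHP-1 and SHP-2, were mostly higher in CD43+ monocytes, the blood gate with the least Fcgr2b. There 7 were higher and 1 lower than in Ly6C+ monocytes (median 0.62, against 0.01 for all genes). Inpp5d, which encodes SHIP1, was 182 and 187 CPM in CD43+ monocytes, 89.7 and 96.6 CPM in Ly6C+ monocytes and 66.2 and 79.7 CPM in LysoDCs. It was 0.78 ± 0.13 higher in CD43+ than in Ly6C+ monocytes (edgeR adjusted p = 0.00133) and differed by -1.06 ± 0.13 between LysoDCs and CD43+ monocytes (adjusted p = 4.40e-05). Pag1, a membrane adaptor for the kinase Csk, was 2.78 ± 0.15 higher in CD43+ than in Ly6C+ monocytes (edgeR adjusted p = 1.02e-06). LysoDCs had 8 of the 11 lower and 2 higher than CD43+ monocytes, 5 lower and 2 higher than DN blood cells, and 3 lower and 1 higher than Ly6C+ monocytes. DN blood cells had 8 lower and 1 higher than CD43+ monocytes, and 1 lower and 0 higher than Ly6C+ monocytes. The shares of all genes called were 55.6%, 53.2% and 51.5% for LysoDCs against CD43+ monocytes, DN blood cells and Ly6C+ monocytes, 34.7% and 16.3% for DN blood cells against CD43+ and Ly6C+ monocytes, and 29.7% between the monocytes. In either direction, the list's calls in LysoDCs against DN blood cells were thus near the background. Those of LysoDCs and of DN blood cells against Ly6C+ monocytes were below it. By direction, 26.9% of all genes were lower and 26.3% higher in LysoDCs than in DN blood cells.

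LysoDCs, nearly without Fcgr2b, did carry other ITIM receptors. Of 10 such genes 5 were higher and 3 lower than in Ly6C+ monocytes (median 0.96, against 0.00 for all genes), 6 higher and 2 lower than in CD43+ monocytes (median 0.84), and 5 higher and 3 lower than in DN blood cells (median 0.51). Of all genes 51.5%, 55.6% and 53.2% were called in these comparisons. The genes higher than in Ly6C+ monocytes include Cd22 (8.38 and 8.87 CPM against 0.980 and 0.385 CPM) and Cd72 (19.0 and 18.7 CPM against 2.20 and 0.962 CPM), both known from B cells and named here after their values were seen. B cell markers were at 221 and 205 CPM in these LysoDCs and at 33.3 and 20.8 CPM in these monocytes, and their part in the counts was not tested. Cd300lf, a receptor for membrane lipids, was 97.1 and 97.7 CPM in LysoDCs and 20.3 and 11.4 CPM in Ly6C+ monocytes (2.76 ± 0.21, edgeR adjusted p = 2.20e-06). Lair1, a collagen receptor, was 209 and 243 CPM against 32.3 and 47.1 CPM (2.56 ± 0.45, edgeR adjusted p = 0.00820). CD43+ monocytes had 330 and 368 CPM of Lair1, and LysoDCs did not differ from them past the threshold (-0.35 ± 0.41, edgeR adjusted p = 0.513). Clec12a, a lectin for uric acid crystals, was almost absent from LysoDCs, with 1.31 and 0.819 CPM, while Ly6C+ monocytes had 230 and 241 CPM (-7.49 ± 0.23, edgeR adjusted p = 7.23e-09). Cd300a, a receptor for phosphatidylserine, was 41.4 and 32.1 CPM, with 325 and 396 CPM in those monocytes (-3.22 ± 0.21, edgeR adjusted p = 9.56e-07). Pirb, the paired Ig-like receptor B, was 246 and 274 CPM in LysoDCs and 209 and 230 CPM in CD43+ monocytes (0.53 ± 0.14, edgeR adjusted p = 0.00990).

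The genes whose profile was most like that of each receptor were sought among 4129 genes by Pearson's r of log2(CPM + 1) over the 13 separate sums (9 populations of dataset 1 and 4 of dataset 2). These sums share libraries and depth differences, and r is given as a description. Fcgr1 was closest to Stxbp6 (0.99), Itga1 (0.987) and Sema4a (0.980), and the genes close to Fcgr2b included Sema4a (0.982) and Mcub (0.972). Fcgr4 was closest to Pparg (0.99), Nr3c1 (0.988) and Heca (0.984), Fcgr3 to Tpst2 (0.977), Vsir (0.973) and Mpeg1 (0.969), and Fcer1g to Aldh3b1 (0.985), Rasa3 (0.981) and Metrnl (0.973). Sema4a was thus named for both Fcgr1 and Fcgr2b.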

How the data were processed

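The deposited tables are unnormalized UMI counts of genes and hashtags in each barcode, made by the authors with Cell Ranger 6.0.1, per the file headers, whereas the submitters' processing notes name Cell Ranger 2.0.0 and mm10. Hashtags were called with HTODemux (Seurat 5.3.0, quantile 0.99), and barcodes with several hashtags (2038 and 4572) were removed as doublets. Cells needed 1000 UMIs, 500 genes and at most 10% mitochondrial UMIs. The 2 datasets share 37 barcode sequences. UMIs were summed per population and dataset (2483174 to 38177761 per tested sum) and tested in edgeR 4.0.16 (TMM, filterByExpr, robust quasi-likelihood, dataset as a block, 3 residual degrees of freedom). Dataset marks shared handling by the labels, and deviations of the populations between datasets correlated (r = 0.20 to 0.35 over 6 pairs). An SE is the log2 difference over the square root of F and is rough for genes near 0. Intervals are exact Poisson for levels, and Clopper-Pearson for shares and ratios, at 95%. Genes and lists were chosen with earlier results of these data known. From each list up to 6 genes per comparison could be named, by lowest adjusted p at 50 CPM or more in the higher population of both datasets, and a selection of these is given. One gene of the likeness ranking is not reported here. DESeq2 1.42.0 was an alternative. The scaled hashtag call (top hashtag at least 2 times the next) and scaling by library totals were added after seeing the data.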

Additional observations from a re-analysis of the deposited data

Results flagged for a closer look

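Fcgr3 in LysoDCs against CD43+ monocytes moved in opposite directions in the 2 datasets, with a log2 ratio of CPM of -0.28 in dataset 1 and 0.18 in dataset 2. The difference between the datasets was not tested, as each has 1 sum per population. Both values are small beside the differences of the other 4 genes in the same comparison, whose signs were the same in both datasets.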

How the results depend on the processing

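Of 330 refitted differences of the 5 genes over all alternatives, 13 lost their call, 7 gained one, 2 changed sign and the others kept direction and side of the threshold. The sign changes were both of Fcgr3, which was not called: -0.046 in LysoDCs against CD43+ monocytes with library totals only, and 0.046 in DN blood cells against CD43+ monocytes without the DN sum of dataset 2, where leaving out 1 sum at a time gave -0.75 to 0.046. The calls lost concerned Fcgr4 and Fcgr1 in DN blood cells against Ly6C+ monocytes, and Fcgr1 and Fcer1g in DN blood cells against CD43+ monocytes, with values given beside them. Without the replicate block (dataset), genes called in DN blood cells against Ly6C+ monocytes fell from 1872 to 1082, and leaving out 1 sum at a time gave 383 to 2328. The same gave 1433 to 2512 genes for CD43+ against Ly6C+ monocytes and 1777 to 3986 for DN blood cells against CD43+ monocytes. The block changed no other call of the 5 genes. The mean activating to inhibitory ratio of both datasets was 21.5 in LysoDCs with the scaled hashtag call, against 41.9, and 2.05 in Ly6C+ monocytes with Fcgr1 left out, against 3.02. Of the shares of cells, 105 of 140 moved with the thinning depth, as fewer or more UMIs per cell must change them. The planned call by a dominant hashtag was not run, since it left 0 CD43+ monocytes in dataset 1. With 2 pools per population, every p rests on a spread shared across populations, and where a sum was left out the lone sum was assumed to vary like the others. Comparisons between blood gates in dataset 2 are also between libraries.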
